A study of Saccharomyces cerevisiae with 2 samples.

Results

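Premature and alternative polyadenylation sites were examined in 8 yeast genes, namely CBP1, AEP2, RNA14, SUA7, SIR1, NRD1, HRP1 and PCF11. They are 8 of the 6002 nuclear protein-coding open reading frames (ORFs) of the R64 annotation, and none of them has an intron. For each gene, every molecule on its strand was taken that overlapped the span from start codon to stop codon or that started up to 300 nt upstream of it. This gave 1301 molecules in 405 isoforms, an isoform being a distinct pair of a start and an end position, out of 6074514 molecules in 510263 isoforms in the whole table. The cells were Saccharomyces cerevisiae of the BY4741 background with SET2 replaced by the kanMX4 cassette (delta set2::kanMX4). They were grown to OD 1, in mid-log phase, in YPAD, a rich medium with 1% glucose. The series has this group only, with 2 biological replicates that share 1 column of counts, so there is no strain with SET2 to compare with, no spread between replicates and no test between groups.

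A yeast mRNA ends where the nascent RNA is cut and a poly(A) tail is added. The cleavage and polyadenylation factor (CPF) carries the nuclease and the poly(A) polymerase, cleavage factor IA (which contains Rna14 and Pcf11) bridges the RNA, CPF and the polymerase, and Hrp1 binds UA-rich elements upstream of the site. Nrd1 acts in a separate pathway with Nab3 and the helicase Sen1, which ends short noncoding transcripts early and can also stop transcription shortly after a gene's start. NRD1 and HRP1 are well-studied cases of genes whose own transcripts are attenuated in this way. CBP1, AEP2, RNA14 and SIR1 have been described with poly(A) sites inside their coding sequence whose use shifts with the carbon source, and SUA7 with transcripts that differ at their 3′ ends.

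Transcript isoform sequencing (TIF-Seq) records both termini of an RNA, its cap site and its poly(A) site, so an end can be read together with the start it belongs to. Molecules that begin at the start codon or before it and reach into the ORF are called own-start molecules. A count can include PCR copies of a molecule, so the number of isoforms is given beside small counts, and all intervals cover counting error only. The 8 genes had from 20 molecules (PCF11) to 288 (RNA14), against a median of 123 over all ORFs, and 7 of them had at least 50. Over SET2 itself there were 0 molecules on either strand. Of full-ORF start sites with at least 30 molecules, 75.5% had a pyrimidine followed by a purine at the start when read in R64, and at most 28.3% did when positions were shifted by up to 20 nt. The last base of a molecule was A in the genome for only 2.92% of all molecules. An A in the genome just past an end may thus belong to the transcript, and an end followed by A is uncertain by the length of that run.

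Most molecules of the 8 genes started inside the ORF. Internal-start molecules, which begin more than 100 nt inside the ORF and end at or past its stop codon, numbered 733 of 1301 (56.3%, 95% Wilson interval 53.6% to 59.0%). Of the own-start molecules, 111 ended at or past the stop codon and are called full-ORF molecules. The other 246 ended inside the ORF and are called premature-end molecules. The genes divided these classes very differently. Premature-end molecules were 117 of 178 in HRP1 and 0 of 158 in SUA7, and molecules with both ends inside the ORF were 144 of 246 in AEP2. Molecules over 2000 nt made up 0.503% of the whole table, so a class share describes the molecules that were read and not the RNA in the cell.

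**Figure D1:**
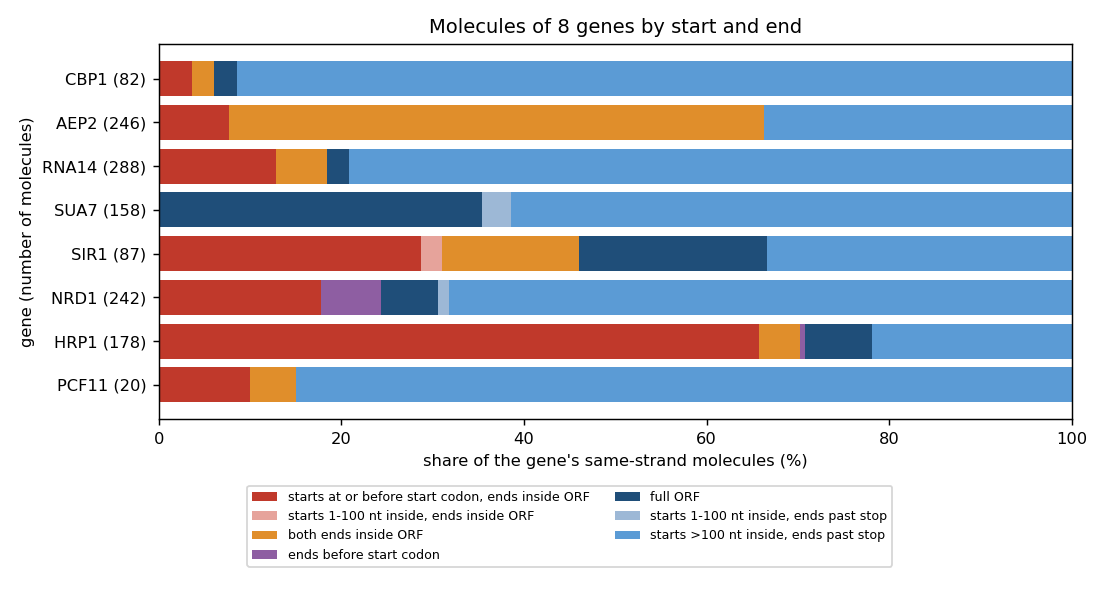
Share of same-strand molecules (x axis, percent) in each class of start and end for the 8 genes (y axis, with the number of molecules in brackets). Red marks premature-end molecules, which are 117 of 178 in HRP1 and 0 of 158 in SUA7.

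End sites were joined into a cluster where neighbouring sites lay at most 20 nt apart, and a cluster had to hold at least 5 molecules. Inside the ORF, 15 such clusters were found, in AEP2, RNA14, SIR1, NRD1 and HRP1. These are 5 of the 7 genes with at least 50 molecules, against 33.5% of the 4287 ORFs with at least 50, and against 41.5% of the 974 such ORFs that are 1500 to 2500 nt long. Of the 15 clusters, 7 had their most used site next to A-rich genome sequence, defined as at least 6 A in the 10 nt downstream, where a primer against poly(A) could anneal to the RNA itself. RNA14, SIR1, NRD1 and HRP1 had at least 1 cluster inside the ORF whose most used site was not A-rich. That is 4 of the 7 genes, against 20.8% of the 4287 ORFs and 27.3% of the 974 that are 1500 to 2500 nt long. HRP1 counts here through its cluster of 5 molecules alone, in which 3 molecules had A-rich ends. Its most used site held 2 molecules and was tied with an A-rich site 203 nt past the first base of the start codon. Ties went to the site farthest downstream, and HRP1 would not count here with the other site. The largest inside cluster of HRP1 had an A-rich most used site, although 52 of its 78 molecules had ends that were not A-rich. With a minimum of 10 molecules for a cluster, 2 genes remained (RNA14 and SIR1). Over all molecules of the 8 genes, an A-rich end was found in 262 of 432 that ended inside the ORF (60.6%, 56.0% to 65.1%) and in 96 of 852 that ended past the stop codon (11.3%, 9.32% to 13.6%). Over all ORFs these shares were 67.2% and 20.8%. Without AEP2, which had 163 of the 432 inside ends, the inside share was 39.8%. Whether priming on A-rich RNA made any of these ends was not tested.

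**Figure D2:**
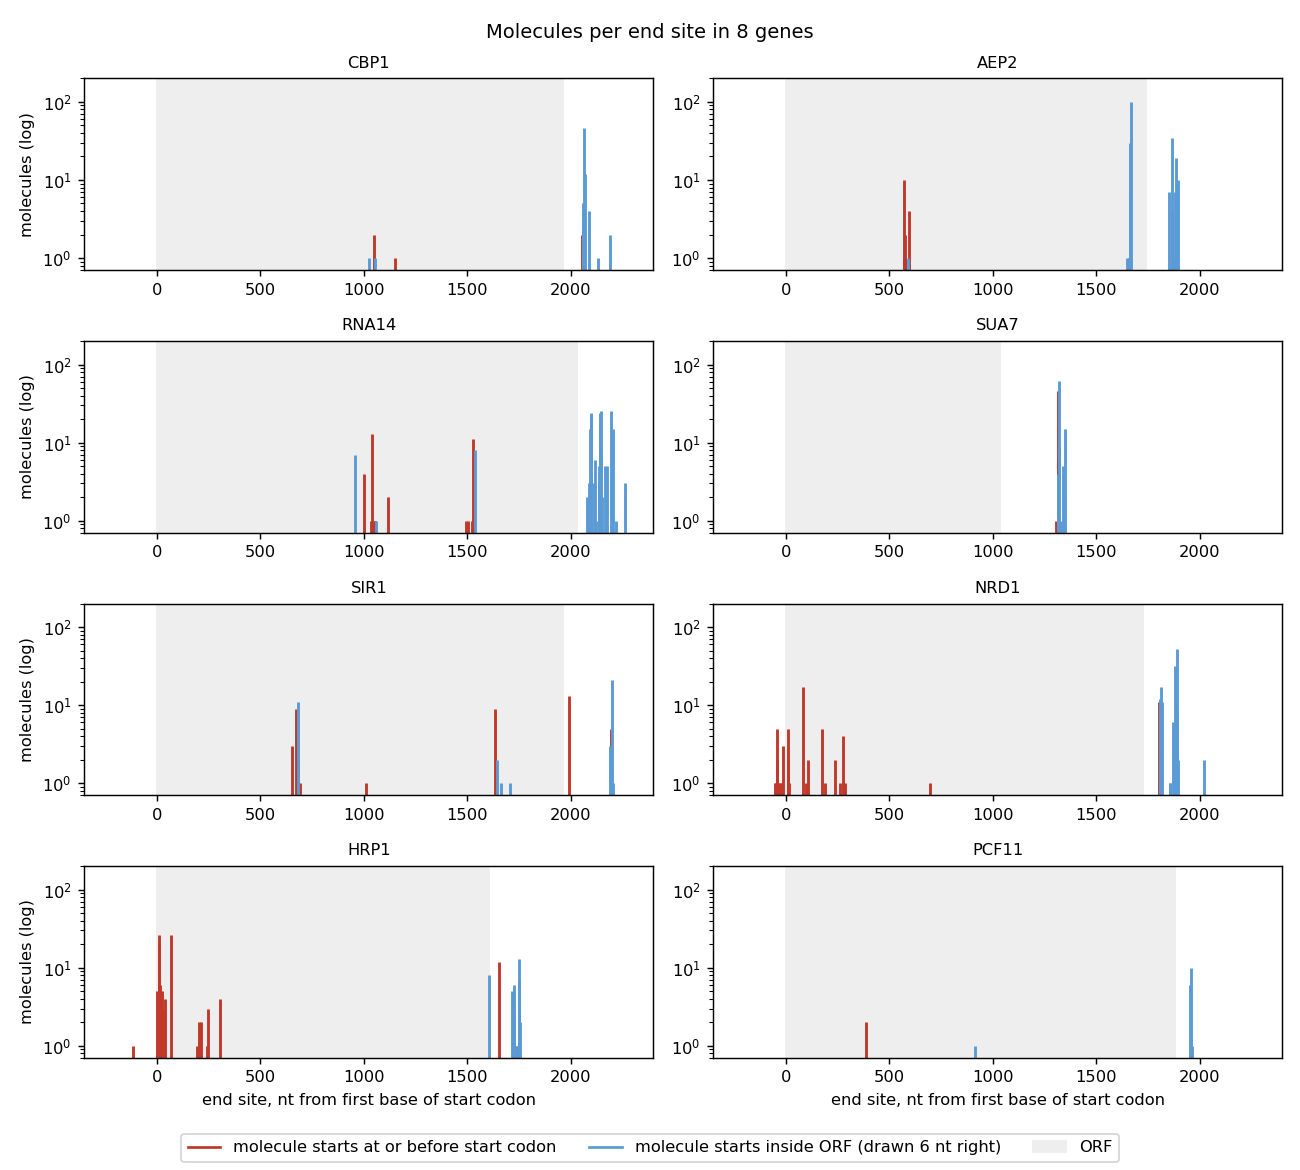
Molecules per end site (y axis, log scale) against the distance of the end from the first base of the start codon (x axis, nt), with the ORF shaded; red lines are molecules that start no later than the start codon and blue lines those that start inside the ORF. Red lines stand near the start codon in NRD1 and HRP1, mid-ORF in RNA14 and SIR1, and are absent from the ORF of SUA7.

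AEP2 (YMR282C, chromosome XIII, 833356 to 835098, minus strand) encodes a mitochondrial protein needed to express OLI1, an ATP synthase gene of the mitochondrial genome. Of its 246 molecules, 163 (66.3%, 60.1% to 71.9%) ended inside the ORF and 83 past the stop codon. The inside ends fell into an early and a late cluster. The early cluster held 19 molecules of 8 isoforms that ended from 571 to 594 nt past the first base of the start codon. Of these, 18 were own-start molecules, 12 of them starting at position 835156, a site with the pyrimidine-purine pair that lies 58 nt upstream of the start codon. The late cluster held 144 molecules of 31 isoforms, its most used site lay 81 nt before the last base of the stop codon, and 143 of its molecules also started inside the ORF. No full-ORF molecule was read (0 of 19 own-start molecules, which allows a share of up to 15.8%). Past the stop codon there was 1 cluster, 104 to 146 nt away, and all 83 molecules in it started inside the ORF. Both inside sites were A-rich, with 6 and 8 A in the 10 nt downstream, and the site past the stop codon had 5. The 3 sites are shown here on the RNA strand in R64; in all sequences below, the last lower-case base is the most used end and the capitals are the 10 nt downstream that were scored for A.
AEP2 early inside end (chrXIII:834517-834546, minus strand): agaaaccaagttaacttacgGAATACGAAA
AEP2 late inside end (chrXIII:833427-833456, minus strand): tgaaaaacaagattgagaacAAAAAGGAAA
AEP2 end past the stop codon (chrXIII:833226-833255, minus strand): gtctaatatgtataaacatcAAATTCATTA
The late inside end is followed by an unbroken run of A and the early one is not. GPI12 lies on the opposite strand 102 nt past the AEP2 stop codon, and all 83 ends past the stop codon lay inside the GPI12 ORF.

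CBP1 (YJL209W, chromosome X, 38005 to 39969, plus strand) encodes a mitochondrial factor that stabilises the cytochrome b mRNA. It had 82 molecules, of which 75 were internal starts. Only 5 were own-start molecules: 2 molecules of 1 isoform covered the full ORF, and 3 molecules of 2 isoforms ended inside it, 1048 and 1154 nt past the first base of the start codon. A further 2 molecules had both ends inside the ORF and ended at 1020 and 1048 nt. None of these inside ends made a cluster of at least 5 molecules. With a minimum of 3, the site at 1048 nt counted, so 6 genes had an inside cluster and 5 had one that was not A-rich. With 5 own-start molecules, the share of 60% that ended prematurely has an interval of 23.1% to 88.2%, so this depth does not show which form is the more frequent. Of the 77 ends past the stop codon, 74 fell in 1 cluster 89 to 117 nt away, with 47 molecules at its most used site. That site is shown as the reference for this gene.
CBP1 end past the stop codon (chrX:40043-40072, plus strand): aaatccaagcattgcatcctAATTCTTTTC
It is not A-rich, with 2 A downstream. The most used internal start, at position 39634 and 1629 nt inside the ORF, had 34 molecules.

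RNA14 (YMR061W, chromosome XIII, 392755 to 394788, plus strand) encodes a scaffold subunit of cleavage factor IA. Of its 288 molecules, 53 (18.4%, 14.4% to 23.3%) ended inside the ORF. Among the 44 own-start molecules, 37 of 11 isoforms ended inside and 7 of 3 isoforms covered the full ORF, a premature-end share of 84.1% (70.6% to 92.1%). The first of the clusters inside the ORF was a single site with 7 molecules of 1 isoform, which had both ends internal. The next held 18 molecules of 6 isoforms, 1035 to 1055 nt past the first base of the start codon. Of these, 17 were premature-end molecules, and 13 of the 18 were 1 isoform. The last held 22 molecules of 5 isoforms, 1494 to 1530 nt past it, 14 of them premature-end molecules. All 37 premature-end molecules started within 20 nt of a full-ORF start, and 22 of them used position 392731, 24 nt upstream of the start codon, which was also the start of 6 of the 7 full-ORF molecules. The other 15 premature-end molecules started at positions that no full-ORF molecule used. The sites of the larger clusters differ in the sequence that follows them.
RNA14 mid-ORF end (chrXIII:393778-393807, plus strand): ttattagctaatcccgactcACCTTCTCTT
RNA14 later inside end (chrXIII:394266-394295, plus strand): cttatttgaaacatcagtggAAAAAGTGCA
RNA14 most used end past the stop codon (chrXIII:394875-394904, plus strand): aaaaaacgatgtgacaggatAGTTAAGGTG
The mid-ORF end has 1 A downstream and lies 51.3% of the way along the ORF, after 347 whole codons. The later inside end has 6 A and meets the A-rich definition. Past the stop codon RNA14 had 232 molecules of 84 isoforms in a broad cluster, 42 to 179 nt away, with 27 end sites, and its most used site had 28 molecules.

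SIR1 (YKR101W, chromosome XI, 640540 to 642504, plus strand) encodes a protein that helps establish silencing at the silent mating-type loci. Of its 87 molecules, 40 (46.0%, 35.9% to 56.4%) ended inside the ORF. Of the 43 own-start molecules, 25 of 8 isoforms ended inside and 18 of 2 isoforms covered the full ORF, a premature-end share of 58.1% (43.3% to 71.6%). The larger inside cluster held 26 molecules of 7 isoforms, 655 to 694 nt past the first base of the start codon, and 15 of them were premature-end molecules. The other held 12 molecules of 3 isoforms, 1635 to 1658 nt past it, and 9 of them were premature-end molecules, all of 1 isoform. Neither had an A-rich most used site, and 2 of the 40 inside ends were (5%, 1.38% to 16.5%), the lowest share among the 5 genes with such clusters. SIR1 also had 2 clusters past the stop codon.
SIR1 early inside end (chrXI:641196-641225, plus strand): aaaggatgatctgctatttcAATTATTAGG
SIR1 late inside end (chrXI:642156-642185, plus strand): aaaattcctacgaggtgcggACTTCAAGTT
SIR1 near end past the stop codon (chrXI:642516-642545, plus strand): gattatcagttatggataccAACATATAAG
SIR1 far end past the stop codon (chrXI:642717-642746, plus strand): atactgcaattgatgatcccAATTACTGTT
Of the 4 sites, the near end past the stop codon alone is A-rich, with 6 A. All 13 molecules that ended there, 31 nt past the stop codon, belonged to 1 isoform that started 10 nt upstream of the start codon. The far cluster, 219 to 233 nt away, held 34 molecules of 15 isoforms.

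SUA7 (YPR086W, chromosome XVI, 710101 to 711138, plus strand) encodes TFIIB, the general transcription factor that bridges the TATA-binding protein and RNA polymerase II. None of its 158 molecules ended inside the ORF, which allows a share of up to 1.90%. All 158 ended in 1 cluster 271 to 306 nt past the stop codon, and 107 of them at a single site 277 nt away. The 56 full-ORF molecules of 16 isoforms started at 11 sites from 77 to 6 nt upstream of the start codon, so starts were spread while ends were not. The site is not A-rich.
SUA7 end past the stop codon (chrXVI:711396-711425, plus strand): gtggcctttagcccataccgAATTGTTTTG
SRP54 lies on the opposite strand 264 nt past the SUA7 stop codon, and all 158 ends lay inside the SRP54 ORF. A shorter SUA7 transcript with an end nearer the stop codon was not seen at this depth: 0 of 158 molecules ended less than 271 nt past it.

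NRD1 (YNL251C, chromosome XIV, 172588 to 174315, minus strand) encodes the RNA-binding subunit that gives its name to the early termination pathway. Its full-ORF molecules all started 290 nt upstream of the start codon, a long leader. Of the 58 own-start molecules, 43 of 14 isoforms ended inside the ORF and 15 of 2 isoforms covered it, a premature-end share of 74.1% (61.6% to 83.7%). A further 16 molecules of 9 isoforms started from 298 to 265 nt upstream and ended before the start codon, 51 to 13 nt from it. The early ends were spread over several places. The clusters inside the ORF had their most used sites 11, 82, 173 and 274 nt past the first base of the start codon, with 8, 20, 6 and 6 molecules, and all 40 of these were premature-end molecules. Together with the cluster before the start codon, these sites leave at most 91 whole codons of the ORF in the molecule. The median length was 373 nt for premature-end molecules, against 2093 nt for full-ORF molecules. Of the 43, 36 started within 20 nt of the full-ORF start, but only 17 started exactly at it, all of 1 isoform with an A-rich end. The other 26 started at positions that no full-ORF molecule used. The cluster before the start codon, the largest inside cluster and the most used ends past the stop codon have these sequences.
NRD1 end before the start codon (chrXIV:174347-174376, minus strand): tctccaagcacgagttacagGAAAGGAACC
NRD1 largest early end in the ORF (chrXIV:174223-174252, minus strand): tctggtatttcaggttctcgTATTAAGAAA
NRD1 near end past the stop codon (chrXIV:172496-172525, minus strand): ttctgttttttcctatgttcCTTTTTTTTT
NRD1 far end past the stop codon (chrXIV:172419-172448, minus strand): aatgtagcattatcctattcTTTATTCTCT
The largest early end has 6 A downstream and meets the A-rich definition, and 17 of its 20 molecules were 1 isoform. The other 3 inside clusters had from 1 to 3 A downstream. The ends past the stop codon are followed by T-rich sequence, and 0 of the 183 molecules that ended there had an A-rich end, which allows a share of up to 1.64%.

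HRP1 (YOL123W, chromosome XV, 87844 to 89448, plus strand) encodes cleavage factor IB, the protein that binds the UA-rich element upstream of poly(A) sites. It had the most premature-end molecules of the 8 genes. Of the 130 own-start molecules, 117 of 36 isoforms ended inside the ORF and 13 of 2 isoforms covered it, a share of 90.0% (83.6% to 94.1%). Starts and ends differed between the groups. The premature-end molecules started from 389 to 324 nt upstream of the start codon, 31 of them at position 87464, 380 nt upstream, a site with the pyrimidine-purine pair. Of the 13 full-ORF molecules, 12 belonged to 1 isoform that started 33 nt upstream, at a site without that pair, and 1 started 380 nt upstream. Only this 1 started within 20 nt of a premature-end start. The share of 90.0% thus pools molecules from separate start regions. The largest cluster of early ends held 78 molecules of 26 isoforms, 2 to 42 nt past the first base of the start codon. A second site 68 nt past it held 26 molecules of 3 isoforms, and a cluster at 194 to 214 nt held 5. The premature-end molecules were 395 nt long at the median and held at most 71 whole codons where they ended in a cluster.
HRP1 first early end in the ORF (chrXV:87834-87863, plus strand): taaataagcaatgagctctgACGAAGAAGA
HRP1 next end (chrXV:87893-87922, plus strand): ctaccactactgaagaagtcAAAAAAGAAG
HRP1 end in the stop codon (chrXV:89427-89456, plus strand): ctaccatccatataataggtAAAAAAAAAG
HRP1 near end past the stop codon (chrXV:89478-89507, plus strand): aaagttttcttgtataattcAACAACCCTT
HRP1 far end past the stop codon (chrXV:89568-89597, plus strand): atagttattatttttttttcACTATGCTAG
The first 3 of these sites are A-rich, with 6, 8 and 9 A, and the ends past the stop codon are not. Over all premature-end molecules of HRP1, 55 of 117 (47.0%) had an A-rich end, so 62 did not. The end in the stop codon, with 8 molecules of 2 isoforms that both started inside the ORF, is followed by a run of A, so that its true end may lie past the stop codon. The selection of molecules that start at most 300 nt upstream leaves out HRP1 molecules with the usual start that end before the start codon. With a reach of 500 nt, 87 molecules of 22 isoforms ended before the start codon, of which 10 had an A-rich end, against 1 molecule with a reach of 300 nt. Of these, 70 molecules of 16 isoforms ended 42 to 27 nt upstream of the start codon and 12 ended 2 nt upstream of it. The early ends of HRP1 thus ran from the leader into the first codons.

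**Figure D3:**
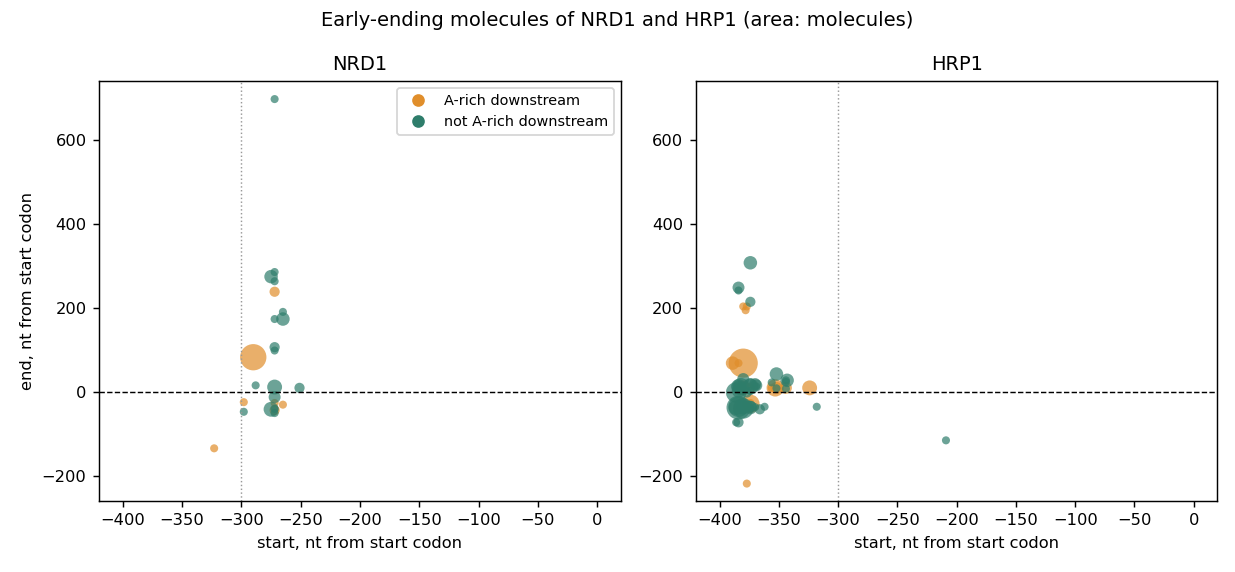
Start (x axis) and end (y axis) of NRD1 and HRP1 molecules that start before the start codon and end in the leader or early in the ORF, both in nt from its first base; the dot area grows with the number of molecules, the dashed line is the start codon and the dotted line the reach of 300 nt. All but 1 HRP1 molecule lie left of the dotted line, close to 380 nt upstream, with ends on either side of the start codon, and NRD1 molecules start from 298 to 251 nt upstream in all but 1 case.

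PCF11 (YDR228C, chromosome IV, 921926 to 923806, minus strand) encodes the cleavage factor IA subunit that binds the tail of RNA polymerase II. With 20 molecules, it is the gene with the least data. It had 17 internal starts and 0 full-ORF molecules. The 2 molecules that started upstream of the start codon, 69 nt away, belonged to 1 isoform that ended 386 nt past its first base next to A-rich sequence. The premature-end share of 100% thus rests on 2 molecules and has a lower Wilson limit of 34.2%. The ends past the stop codon lay 67 to 75 nt away and were not A-rich.
PCF11 end past the stop codon (chrIV:921844-921873, minus strand): ttctttgttcttggtatttgATGGGTTGCT

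The premature-end share was then set beside that of other ORFs, since long ORFs have few full-ORF molecules in this table. Over the 8 genes together the share was 246 of 357 (68.9%, 63.9% to 73.5%), and without HRP1 it was 56.8%. Of the 6 genes with at least 10 own-start molecules, 5 had a share above 50%, all but SUA7. Among all 3870 ORFs with as many, 13.2% had. Among the 766 of these that are 1500 to 2500 nt long, 28.1% had, against 5 of 5 of the genes in that range. This length range was chosen with the values in view, and so were the 8 genes, so no test is given. For each gene, ORFs within 10% of its length and with at least 10 own-start molecules give a closer setting. HRP1 stood at 90.0% where the 445 ORFs of like length had a median of 4.35%, and 24 of them were higher. Its premature-end and full-ORF molecules mostly came from separate start regions. AEP2 stood at 100% where 366 had a median of 8.91%, and 13 of them were also at 100%. NRD1 stood at 74.1% where 367 had a median of 8.46%, and 43 were higher. RNA14 stood at 84.1% where 249 had a median of 20%, and 39 were higher. SIR1 stood at 58.1%, inside the quartiles of the 277 ORFs of like length, which had a median of 16.3% and an upper quartile of 63.6%. The share of SIR1 depended on the counting: it was 82.8% (24 of 29) with A-rich ends left out and 80% (8 of 10) with each isoform counted once, and the other ORFs were not recounted in these ways. SUA7 stood at 0%, against a median of 0.0206% in 523 ORFs. The early position was also compared: NRD1 and HRP1, 2 of the 7 genes, had a cluster in the first 300 nt of the ORF, against 11.5% of the 4287 ORFs. This window too was chosen after seeing the data.

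**Figure D4:**
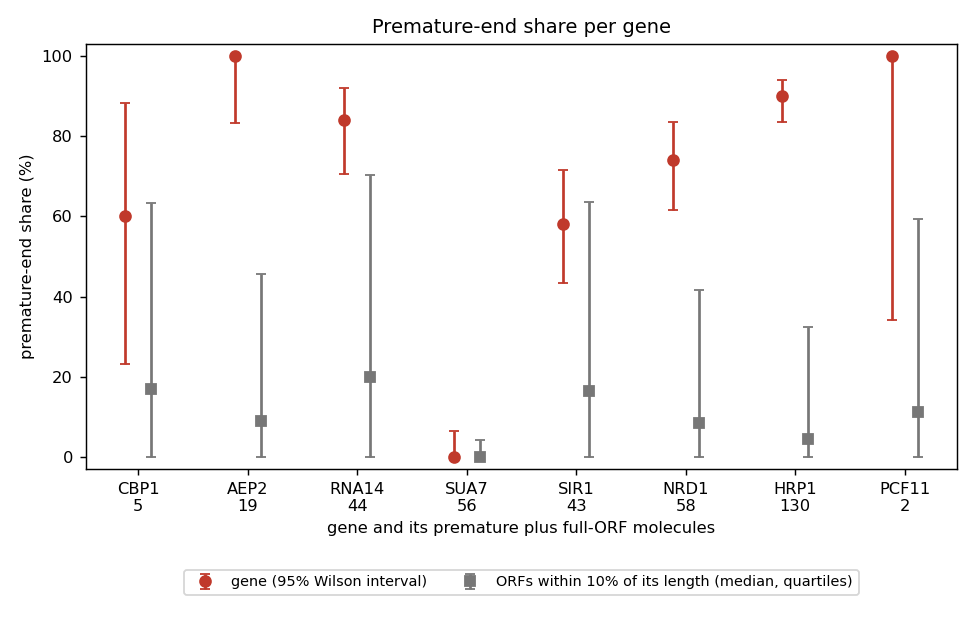
Premature-end share (y axis, percent) of each gene with its 95% Wilson interval (red) and the median and quartiles of ORFs within 10% of its length (grey); the number under each gene is its premature-end plus full-ORF molecules. HRP1 at 90.0% and AEP2 at 100% lie above the upper quartile of ORFs of like length.

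The 3′ UTR, counted from the stop codon to the end, ranged widely among the genes. The 6 genes with full-ORF molecules had median lengths of 31 nt (SIR1), 49 nt (HRP1), 75 nt (NRD1), 92 nt (CBP1), 104 nt (RNA14) and 277 nt (SUA7), against a median of 118 nt over the 3838 ORFs with at least 5 full-ORF molecules. CBP1 had only 2 full-ORF molecules of 1 isoform and so falls below that minimum. SUA7 was longer than 92.8% of those ORFs, and SIR1 was longer than 1.35%. Full-ORF and internal-start molecules of the same gene did not always end alike. In SIR1 the medians were 31 nt for 18 full-ORF molecules and 232 nt for 29 internal-start molecules. In HRP1 they were 49 nt for 13 full-ORF molecules and 139 nt for 39 internal-start molecules, and in NRD1 75 nt for 15 and 146 nt for 165. In SUA7 both medians were 277 nt, and in RNA14 both were 104 nt. Thus in 3 of the 5 genes with at least 5 molecules of each kind the full-ORF median was at least 20 nt shorter, against 13% of the 3529 ORFs with as many, and it was at least 20 nt longer in 0 of the 5, against 5.1%. This comparison and its cut of 20 nt were chosen after seeing the data. Counting error gave the full-ORF median an interval of 31 to 232 nt in SIR1 and 75 to 154 nt in NRD1. These intervals include the internal-start medians of 232 and 146 nt, and in HRP1 the interval was 49 to 49 nt and left out 139 nt. Such an interval is no test of a difference between groups, and none was made. In SIR1, 13 of 18 full-ORF molecules ended at 31 nt, while internal-start molecules ended at least 219 nt away. In NRD1, 11 of 15 full-ORF and 43 of 165 internal-start molecules ended in the near cluster. The 13 SIR1 molecules that ended at 31 nt were 1 isoform with an A-rich end. The 11 NRD1 molecules at 75 nt and the 12 HRP1 molecules at 49 nt were also 1 isoform each. The difference rests on few isoforms, since the full-ORF molecules of SIR1, HRP1 and NRD1 comprised 2 isoforms each. A gene's longest molecules are also those that are read least, and the part of molecule length in this difference was not tested. In SIR1, NRD1 and HRP1 there were 2 or more clusters past the stop codon that each held at least 10% of the ends there. So 3 of 7 genes had such clusters, against 31.2% of the 4287 ORFs and 37.3% of the 974 that are 1500 to 2500 nt long. With a minimum of 3 isoforms for a cluster, only NRD1 had them.

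**Figure D5:**
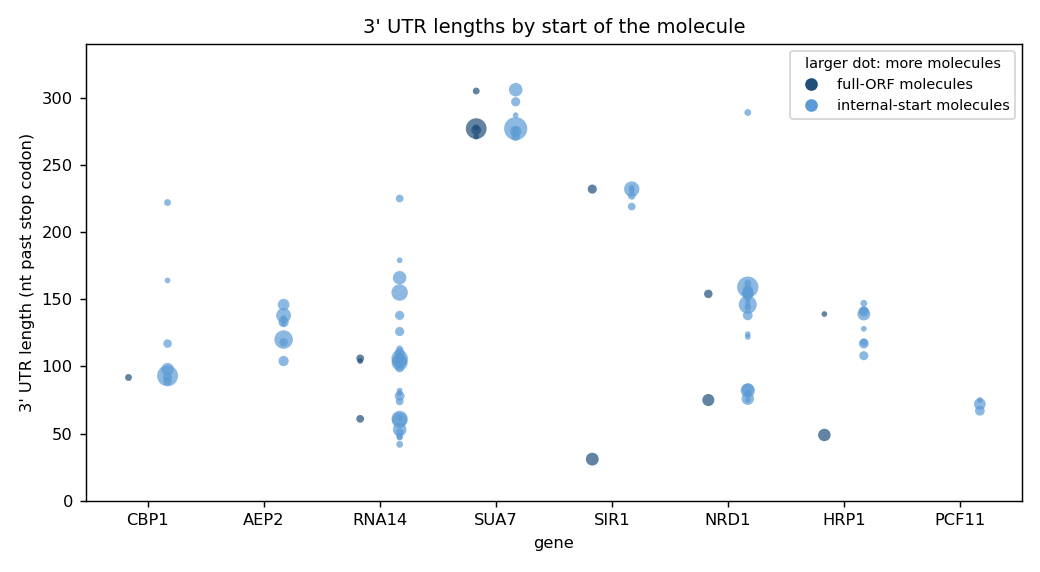
3′ UTR length (y axis, nt past the stop codon) of full-ORF (dark) and internal-start molecules (light) in each gene (x axis), with larger dots for more molecules. Full-ORF molecules of SIR1, HRP1 and NRD1 lie mostly at 31, 49 and 75 nt, below most internal-start molecules, and those of SUA7 lie at 277 nt in both groups.

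Sequence motifs near the ends were counted on the RNA strand alone, with overlapping matches allowed. The UA-rich efficiency element was searched as TATATA and the positioning element as AATAAA, in the 70 nt before the most used end. Past the stop codon, TATATA was found in 6 of 8 genes, all but RNA14 and NRD1, against 39.7% of 4261 ORFs. Before the most used end inside the ORF it was found in 0 of 5 genes, against 7.94% of 1435 ORFs. AATAAA was found in 0 of 8 and 0 of 5, against 16.9% and 9.27%. Of the other clusters, TATATA preceded the mid-ORF end of RNA14 and the near ends past the stop codon of NRD1 and SIR1, and AATAAA the late inside end of SIR1. Nrd1 is known to bind GUAA and GUAG, and Nab3 UCUU. HRP1 had 16 copies of GTAA in its ORF, 9.97 per kb, against a median of 3.18 per kb over all ORFs, of which 98.7% had fewer per kb. The first 300 nt of the HRP1 ORF held 4 of them, against a median of 1. The next highest of the 8 genes in GTAA was SIR1, at 6.11 per kb, with 90.8% of ORFs lower. TCTT was at 4.36 per kb in HRP1, against a median of 4.50 per kb. In NRD1 GTAA was at 3.47 per kb and TCTT at 4.63 per kb, against the medians of 3.18 and 4.50 per kb, and the first 300 nt held 0 copies of GTAA (median 1), 2 of GTAG (median 0) and 2 of TCTT (median 1). These counts describe the letters of the DNA and show no binding. Only the ORF was searched for GTAA, GTAG and TCTT, not the leader. Most early HRP1 molecules ended in the leader or at most 68 nt past the first base of the start codon.

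Other genes of 3′ end formation and nuclear termination were surveyed in a list of 24 further genes, of which 21 had at least 50 molecules. An end cluster inside the ORF was found in 9 of the 21 (42.9%), against 33.5% of all ORFs tested. A cluster whose most used site was not A-rich was found in 6 (28.6%), against 20.8%. A cluster together with a premature-end share of at least 10% was found in 8 of the 21, against 20.9%. These were PAP1, PTI1, REF2, SSU72, NAB3, SEN1, NAB2 and RAT1. NAB3, the partner of Nrd1, had the largest share among those with at least 10 own-start molecules, at 47 of 51 molecules (92.2%, 81.5% to 96.9%). Its clusters had their most used sites 264 and 393 nt past the first base of the start codon, with 24 and 19 molecules, and both were A-rich. In PTI1, a CPF subunit gene, 32 of 45 own-start molecules ended inside the ORF (71.1%, 56.6% to 82.3%), 29 of them in a cluster at 534 to 555 nt. The most used site of this cluster was not A-rich, but 15 of the 32 inside ends were. NAB2, which encodes a nuclear poly(A)-binding protein, had 40 of 70 (57.1%), 33 of them with an A-rich end. SEN1 had only 9 own-start molecules, and 5 molecules ended 8 to 20 nt past the first base of the start codon. Its larger inside cluster held 21 molecules at 5789 to 5792 nt, all with an A-rich end and 0 of them premature-end molecules. REF2 had 8 molecules at 339 to 345 nt. PAP1, the poly(A) polymerase gene, had 8 of 20 own-start molecules ending inside the ORF (40%), and these were 1 isoform. At the other end, PAB1, FIP1, CLP1 and PTA1 had 0 premature-end molecules of 132, 126, 104 and 61.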

How the data were processed

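TIF-Seq molecules were measured in 2 biological replicates of the set2 deletion strain, which the authors deposited as 1 count column per the file headers: a raw count for each pair of start and end position on a strand. Per the submitters' processing notes, CASAVA, Novoalign 2.07.10 and the R64 build were used; filters, duplicate removal and how libraries were combined are not given in the sources used here. Columns of other samples numbered 0. Positions were set against the R64 RefSeq annotation, and 0 lay beyond a chromosome's end. Counts were used without scaling, with no filter on low counts beyond those stated beside each result. A molecule that overlaps several ORFs was counted for each. Shares have 95% Wilson intervals; a count of 0 allows 3 molecules. Class and cluster steps were tested on simulated data. No test between groups could be made. The 8 genes, the gene list, the motifs and the rules were chosen with earlier results of these data known. Named genes are the 8 genes and the listed genes with an end cluster in the ORF and a premature-end share of at least 10%; other listed genes were named after their values were seen. Python 3.11.15, pandas 2.3.3, NumPy 2.4.6 and SciPy 1.17.1 were used.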

Additional observations from a re-analysis of the deposited data

How the results depend on the processing

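No paired analysis was possible because both replicates share 1 count column, and for the same reason no replicate could be left out. Of 46 alternatives for results over all 8 genes, 29 stayed within 1.5 times the count or within the interval of the value; of 31 for a single gene's premature-end share, 25 did. The alternatives without AEP2, without HRP1 and with clusters of at least 3 isoforms were chosen after seeing the data. Genes with an inside cluster whose most used site is not A-rich fell to 2 with at least 10 molecules per cluster, against 4. Genes with several clusters past the stop codon numbered 5 with a gap of 10 nt and 1 with at least 3 isoforms per cluster, against 3. The A-rich share of inside ends, 60.6%, became 73.4% at 5 A in 10 nt, 41.4% at 7 A, 41.7% at 12 A in 20 nt, 46.3% with each isoform counted once and 39.8% without AEP2. That of ends past the stop codon, 11.3%, became 21.4%, 1.53% and 1.88% under the same 3 A-rich rules. The premature-end share, 68.9%, became 75.5% with each isoform counted once, 59.7% without A-rich ends and 56.8% without HRP1. Molecules ending before the start codon, 1.31% of all, became 2.47% with each isoform counted once, 0% with a reach of 100 nt and 7.82% with 500 nt. The cause was not tested, except where the alternative itself sets it (fewer genes, another definition). Depth limits CBP1 and PCF11 most, with 5 and 2 own-start molecules.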
